A study of Homo sapiens with 6 samples.

Results

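The 7 human Sprouty and SPRED genes (SPRY1, SPRY2, SPRY3, SPRY4, SPRED1, SPRED2 and SPRED3) were followed by their gene names in a table of 63241 gene rows, each name matching 1 row. The table came from RNA sequencing of THP-1-derived macrophages, that is, cells of an established human monocytic leukaemia line brought to a macrophage-like state. One group had been transfected with an siRNA against DUSP6 (siDUSP6, genotype label DUSP6 knockdown, 3 libraries) and the other with a negative control siRNA (siNC, genotype label WT, 3 libraries), and both groups were labelled 24 h. The treatment label of siDUSP6 replicate 1 names DUSP6, whereas that of replicate 2 names DUSP7 and that of replicate 3 names DUSP8; titles, library names and genotypes name DUSP6 in all 3. All libraries derive from 1 cell line, and the labels do not say whether separate cultures were used. The p-values thus reflect spread among these libraries alone, and that spread may be technical.

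Sprouty and SPRED proteins are feedback inhibitors of the pathway that runs from receptor tyrosine kinases through RAS and RAF to the kinases ERK1 and ERK2. ERK activity induces several of their genes, and the proteins in turn dampen the activation of RAS or RAF. Both families share a cysteine-rich Sprouty domain at the C terminus that helps to place them at membranes; SPRED proteins also carry an EVH1 domain, through which they bring the RAS GTPase-activating protein neurofibromin to the membrane. DUSP6 acts at the end of the same pathway, as a phosphatase that inactivates ERK1 and ERK2 and is itself an ERK-induced gene.

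The promoter windows of 4 of the genes are shown because SPRY2, SPRED1 and SPRED2 were lower together in siDUSP6 libraries while SPRY4 was not called. RefSeq promoters on GRCh38.p14 matched all 7 genes by symbol; each window runs from 250 bases before the annotated start to 50 bases from it, on the gene's strand, at the outermost start listed. Capitals mark matches on either strand to CCGGAA (ETS), TGANTCA (AP-1), TGACGTCA (CRE) or GCGNGGGCG (EGR), in which N is any base. CCGGAA is an extended form of GGAA, the core bound by ETS factors, and GGAA alone was not marked. The windows lie at chr13:80341077-80341376 on the minus strand for SPRY2, chr15:38252586-38252885 on the plus strand for SPRED1, chr2:65432550-65432849 on the minus strand for SPRED2 and chr5:142324198-142324497 on the minus strand for SPRY4.
SPRY2: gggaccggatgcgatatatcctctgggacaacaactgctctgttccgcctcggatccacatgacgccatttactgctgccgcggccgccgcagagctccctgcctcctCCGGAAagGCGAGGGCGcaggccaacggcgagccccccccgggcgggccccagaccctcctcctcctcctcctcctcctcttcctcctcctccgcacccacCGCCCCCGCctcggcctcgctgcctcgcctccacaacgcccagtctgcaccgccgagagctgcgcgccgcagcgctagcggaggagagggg
SPRED1: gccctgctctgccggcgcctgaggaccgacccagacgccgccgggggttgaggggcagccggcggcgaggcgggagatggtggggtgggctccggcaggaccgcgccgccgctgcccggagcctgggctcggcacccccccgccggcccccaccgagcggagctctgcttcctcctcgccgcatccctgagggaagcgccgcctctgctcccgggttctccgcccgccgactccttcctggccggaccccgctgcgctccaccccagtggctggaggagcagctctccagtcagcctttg
SPRED2: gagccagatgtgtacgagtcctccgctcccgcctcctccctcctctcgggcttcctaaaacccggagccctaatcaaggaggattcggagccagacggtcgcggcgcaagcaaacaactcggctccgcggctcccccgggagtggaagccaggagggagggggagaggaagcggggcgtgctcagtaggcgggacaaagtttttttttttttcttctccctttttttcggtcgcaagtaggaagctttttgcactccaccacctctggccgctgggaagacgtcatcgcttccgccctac
SPRY4: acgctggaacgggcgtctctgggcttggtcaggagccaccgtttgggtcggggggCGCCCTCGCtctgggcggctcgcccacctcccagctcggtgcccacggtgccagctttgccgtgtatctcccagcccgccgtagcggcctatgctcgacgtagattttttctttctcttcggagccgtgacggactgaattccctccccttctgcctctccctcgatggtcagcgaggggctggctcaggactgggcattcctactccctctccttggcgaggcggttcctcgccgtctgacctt

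The SPRY2 window held 1 CCGGAA match, beginning 142 bases before the start, and 2 EGR matches, beginning 134 and 41 bases before it. The SPRY4 window held 1 EGR match, beginning 195 bases before the start. The SPRED1 and SPRED2 windows held none of the 4 motifs, nor did those of SPRY1, SPRY3 and SPRED3. Of 35116 RefSeq promoter windows of this length, 17.2% held CCGGAA, 7.71% AP-1, 1.85% CRE and 9.43% EGR. No matches of different motifs overlapped in the windows printed. The windows of SPRED1 and SPRY2 were the richest in G and C, at 76.3% and 71.0%, against 60.0% for SPRED2 and 65.0% for SPRY4. These matches describe letters in the windows and were not tested as binding sites. RefSeq starts can differ from those of the GENCODE 29 gene models given below. The windows of SPRY4, SPRED1 and SPRED3 lie wholly inside the GENCODE gene, which starts at base 142326455 for SPRY4 and 38252326 for SPRED1. The SPRED2 window spans the GENCODE start at base 65432637. The RefSeq start of SPRY3, base 155612586 of chromosome X, lies far upstream of the GENCODE start at base 155767812.

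Values are TPM, a share of each library's transcript pool scaled for transcript length, so levels can be compared between genes. TPM keep no sequencing depth, and the depth of each library is unknown. The targeted gene, DUSP6, had 227, 218 and 222 TPM in the siDUSP6 libraries (replicates 1 to 3), against 359, 368 and 378 TPM in the siNC libraries. All 3 siDUSP6 libraries lay far below the lowest siNC library, and the mean fell by 39.7% (log2 fold change -0.73, SE 0.0267, limma adjusted p = 8.667e-05). Macrophage markers summed to 5066 to 5123 TPM in siDUSP6 and 4964 to 5053 TPM in siNC over 9 genes. Among them, CD14 and CTSB were called higher by limma and 0 lower, beside 3.86% called in either direction over all tested genes. At an unadjusted p under 0.05, 2 were higher and 3 lower. The share of all tested genes at an unadjusted p is not given, so such counts, here and below, cannot be weighed. Epithelial markers summed to at most 0.44 TPM and T cell markers to at most 0.10 TPM in any library, with EPCAM, CD3D, CD3G and CD8A at 0 in every library. Fibroblast and stromal markers summed to 5.24 to 6.19 TPM in siDUSP6 and 4.94 to 7.75 TPM in siNC, with COL3A1 at 0. Endothelial markers summed to 123 to 127 TPM in siDUSP6 and 127 to 142 TPM in siNC, nearly all from PECAM1, which monocytes also express. In these bulk libraries fewer cells of a type and less RNA per cell cannot be told apart.

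The order of levels was SPRY2, SPRED2, SPRED1, SPRY4, SPRED3, SPRY3 and SPRY1, from high to low, in each of the 6 libraries. No 2 neighbours in this order overlapped within either group. SPRY2 alone made up 60.6% ± 0.369 of the summed TPM of the 7 genes in siDUSP6 and 61.3% ± 0.572 in siNC (SD, n = 3 each), and ranked 525 by mean TPM among all gene rows. SPRED2 ranked 1591, SPRED1 1903 and SPRY4 9242. SPRED3, SPRY3 and SPRY1 were under 2 TPM in every library.

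**Figure D1:**
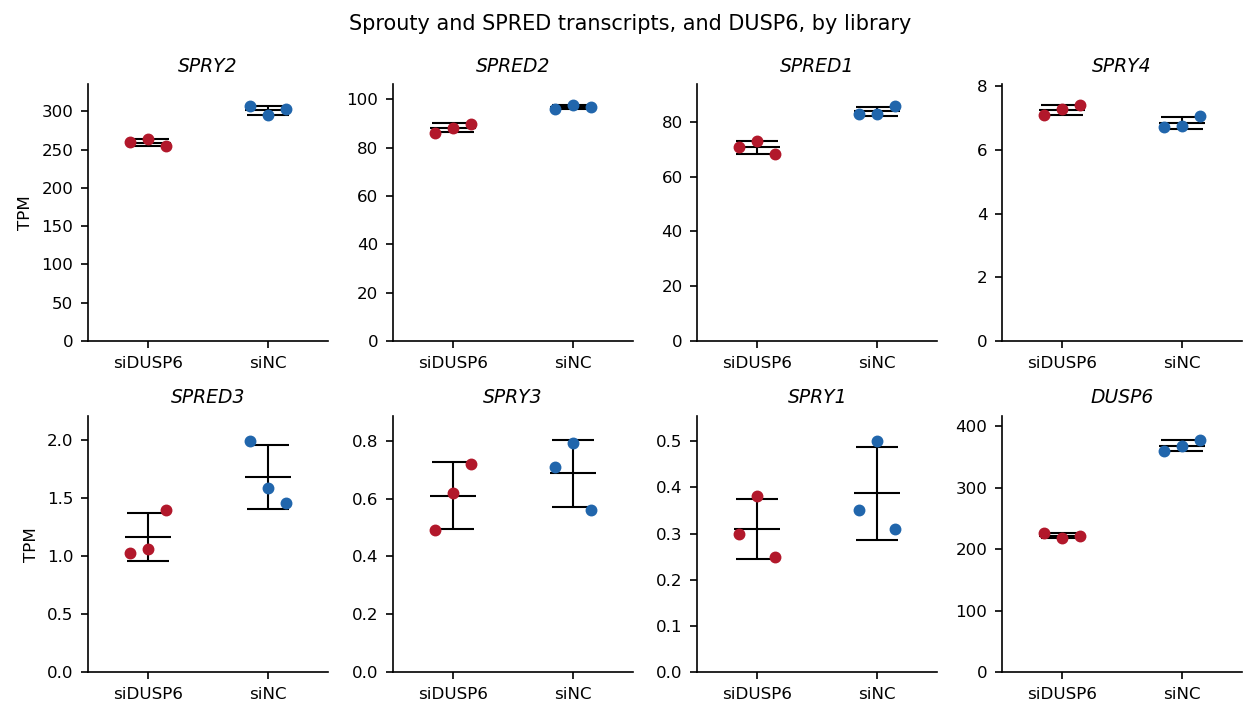
TPM of the 7 Sprouty and SPRED genes and of DUSP6 in each library, ordered by level; points are the 3 libraries of siDUSP6 (red, left) and siNC (blue, right), and bars are the mean ± SD. Every siDUSP6 library lies below every siNC library for SPRY2, SPRED2, SPRED1, SPRED3 and DUSP6, and above for SPRY4; vertical scales differ between panels and start at 0.

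Of the 7 genes, 5 reached a mean of 1 TPM across libraries and were tested; SPRY1 and SPRY3 did not. SPRY2, SPRED1 and SPRED2 fell in siDUSP6 and none rose in limma's test (adjusted p under 0.05); at an unadjusted p under 0.05 the counts were the same, 3 lower and 0 higher. Across all 14602 genes tested, 564 were called (3.86%), 346 higher and 218 lower, so 1.49% were called lower. Among the 2890 genes whose mean reached 50 TPM, where all 3 called members lie, 126 were called lower (4.36%); this split was made after the values were seen. Leaving out any 1 library lowered the calls over all genes to between 165 and 192 higher and between 57 and 79 lower, and median-of-ratios scaling in place of none gave 435 higher and 159 lower.

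SPRY2 encodes the Sprouty protein that binds the adaptor GRB2 and the ubiquitin ligase CBL; its gene occupies bases 80335976 to 80340951 of chromosome 13 (minus strand) in GENCODE 29 on GRCh38, whose start is downstream of the RefSeq start used for the promoter. It measured 259, 263 and 255 TPM in siDUSP6 replicates 1, 2 and 3, against 307, 295 and 302 TPM in the siNC replicates. Every siDUSP6 library lay below every siNC library, with a gap wider than the range within either group. Its mean fell by 14.0%, and its log2 fold change was -0.22 (SE 0.0237, 95% interval -0.27 to -0.16, limma adjusted p = 0.00568). Each of the 6 fits that left out 1 library kept the call (limma adjusted p 0.0169 to 0.0317). The call was lost without the variance trend (limma adjusted p = 0.0772) and with the replicate number as a block (limma adjusted p = 0.0599). It was also lost with siDUSP6 replicate 1 alone against siNC (log2 fold change -0.22).

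SPRY4, another Sprouty inhibitor of growth factor signalling to ERK, went the other way without passing the test. It measured 7.09, 7.28 and 7.41 TPM in the siDUSP6 libraries and 6.73, 6.74 and 7.08 TPM in the siNC libraries. The groups did not overlap, by a margin of 1 unit in the second decimal. The share of all tested genes with every siDUSP6 library above every siNC library is not given, so this cannot be weighed. Its log2 fold change was 0.07 (95% interval -0.08 to 0.22, limma adjusted p = 0.588). The interval of SPRY4 lies wholly above that of SPRY2. SPRY4 occupies bases 142310427 to 142326455 of chromosome 5 (minus strand) and overlaps the antisense gene SPRY4-AS1 on the other strand but not in exons; whether counting used strand is not stated. SPRY4-AS1 was listed at 0.20, 0 and 0.18 TPM in the siDUSP6 libraries and 0, 0.13 and 0 TPM in the siNC libraries.

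SPRY1 and SPRY3, the other Sprouty inhibitors, were near the bottom of the range. SPRY1 measured 0.30, 0.38 and 0.25 TPM in siDUSP6 and 0.35, 0.50 and 0.31 TPM in siNC, and SPRY3 measured 0.49, 0.62 and 0.72 TPM in siDUSP6 and 0.71, 0.79 and 0.56 TPM in siNC. The groups overlapped for both. Without the filter on low values, limma gave an adjusted p of 0.751 for SPRY1 and 0.845 for SPRY3.

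SPRED1, the gene mutated in Legius syndrome, showed the largest log2 fold change of the 3 called genes. It occupies bases 38252326 to 38357249 of chromosome 15 (plus strand). It measured 70.7, 73.1 and 68.3 TPM in siDUSP6 replicates 1, 2 and 3, against 83.0, 82.9 and 85.9 TPM in the siNC libraries. The groups stood apart by more than the range within either. Its mean fell by 15.7%, with a log2 fold change of -0.24 (SE 0.0351, 95% interval -0.33 to -0.16, limma adjusted p = 0.0159). The call was kept without siDUSP6 replicate 2 (adjusted p = 0.0332) and lost without any 1 of the other 5 libraries, with adjusted p from 0.0527 without siDUSP6 replicate 3 to 0.0660 without siDUSP6 replicate 1.

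SPRED2, another neurofibromin-binding member, had the smallest fold change of the 3 called genes. It occupies bases 65310851 to 65432637 of chromosome 2 (minus strand). It measured 86.2, 88.3 and 89.9 TPM in the siDUSP6 libraries and 96.0, 97.6 and 97.0 TPM in the siNC libraries, so the groups again did not overlap. Its mean fell by 9.04%, with a log2 fold change of -0.14 (SE 0.0274, 95% interval -0.20 to -0.07, limma adjusted p = 0.0490). This adjusted p is at the edge of the threshold: the call was kept in 3 of 16 alternatives and lost when any 1 library was left out (adjusted p 0.0867 to 0.148).

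SPRED3, which lacks a functional KIT-binding domain, was low and more variable. It measured 1.03, 1.06 and 1.4 TPM in siDUSP6, against 1.99, 1.59 and 1.46 TPM in siNC. The groups did not overlap, but siDUSP6 replicate 3 and siNC replicate 3 nearly met. Its log2 fold change was -0.31 with an interval of -0.66 to 0.04 (limma adjusted p = 0.321). Of the 5 tested members, 4 had every siDUSP6 library below every siNC library, and the 2 untested members overlapped. That pattern was found in 14.9% of all tested genes and in 21.9% of those whose mean reached 50 TPM.

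**Figure D2:**
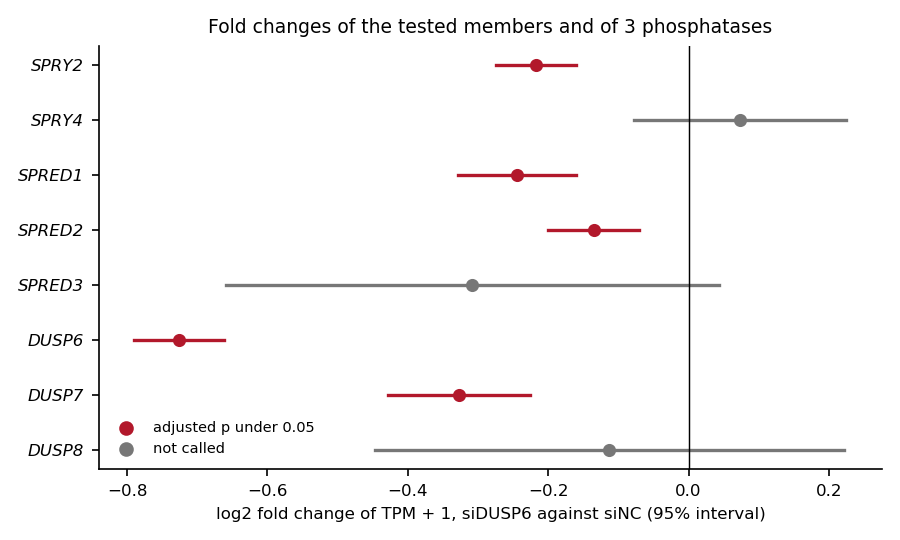
Log2 fold change of TPM + 1 in siDUSP6 against siNC, with 95% intervals from limma, for the 5 tested Sprouty and SPRED genes and for DUSP6, DUSP7 and DUSP8; red marks an adjusted p under 0.05. SPRY2, SPRED1 and SPRED2 lie left of 0 at -0.22, -0.24 and -0.14, nearer to 0 than DUSP6 at -0.73, and SPRY4 lies right of 0.

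**Figure D3:**
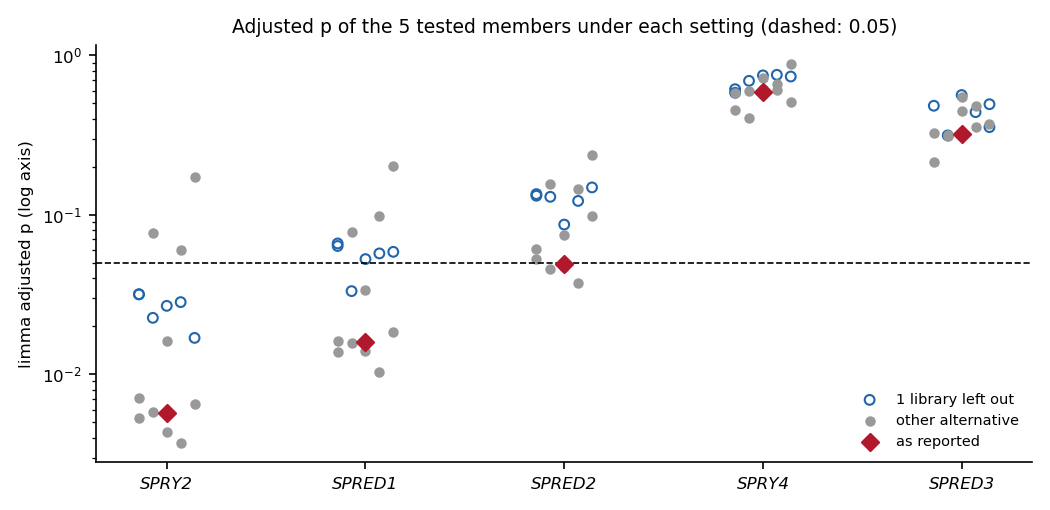
Limma adjusted p of the 5 tested Sprouty and SPRED genes as reported (diamonds), with 1 library left out (open circles) and under the other alternatives (grey points), on a log axis with 0.05 dashed. SPRY2 stays under the line in 13 of 16 alternatives, SPRED1 in 8 of 16 and SPRED2 in 3 of 16, and SPRY4 and SPRED3 lie above it in each alternative that tests them.

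Summed over each family, Sprouty transcripts came to 267 ± 4.28 TPM in siDUSP6 and 309 ± 6.01 TPM in siNC, and SPRED transcripts to 160.0 ± 2.29 TPM in siDUSP6 and 182 ± 1.66 TPM in siNC (SD, n = 3 each). Both sums were lower in siDUSP6, by -13.6% and -12.3% of the siNC mean. The Sprouty sum is nearly all SPRY2 and the SPRED sum is shared by SPRED1 and SPRED2.

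Ratios between genes within a library do not depend on how that library was scaled. SPRY2 was 36.6, 36.2 and 34.4 times as abundant as SPRY4 in the siDUSP6 libraries, against 45.6, 43.8 and 42.7 times in the siNC libraries. The groups did not overlap, and the difference was -0.30 on the log2 scale. SPRED1 stood at 0.821, 0.828 and 0.760 of SPRED2 in siDUSP6, against 0.864, 0.849 and 0.886 in siNC, a log2 difference of -0.11 that was -0.07 without siDUSP6 replicate 3. SPRY1 relative to SPRY2 overlapped between the groups (exact permutation p = 0.7).

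Relative to DUSP6, the gene targeted by the siRNA, both SPRY2 and SPRED1 stood higher in siDUSP6 libraries. The siRNA lowered the denominator: DUSP6 fell more (log2 fold change -0.73) than SPRY2 (-0.22) or SPRED1 (-0.24). Both ratios therefore rose although both genes fell. SPRY2 was at 1.14, 1.21 and 1.15 times DUSP6 in the siDUSP6 libraries and at 0.854, 0.801 and 0.801 times DUSP6 in the siNC libraries. SPRY2 therefore exceeded DUSP6 in every siDUSP6 library and lay below it in every siNC library. SPRED1 was at 0.311, 0.336 and 0.308 of DUSP6 in siDUSP6 and 0.231, 0.225 and 0.227 in siNC. The log2 differences were 0.51 for SPRY2 and 0.48 for SPRED1. Of the 5 ratios, 4 reached p = 0.1 in an exact two-sided permutation test (0.125 after Benjamini-Hochberg adjustment over the 5). A p of 0.1 is the smallest that 3 against 3 libraries allow, so no ratio could pass a threshold of 0.05. These 4 include both ratios to DUSP6, whose rise follows from the knockdown.

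**Figure D4:**
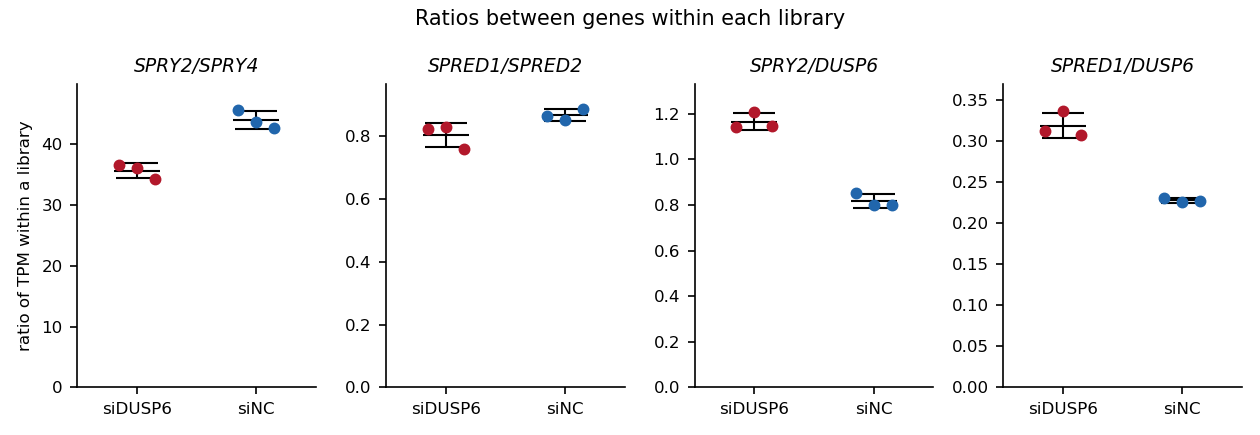
Ratio of the TPM of 2 genes within each library, for siDUSP6 (red, left) and siNC (blue, right); points are libraries and bars the mean ± SD. SPRY2/SPRY4 and SPRED1/SPRED2 are lower in all 3 siDUSP6 libraries and both ratios to DUSP6, the silenced gene, are higher.

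The genes whose log2(TPM + 1) followed SPRY2 most closely over the 6 libraries, among the 9847 other genes that had a gene name in the table and a mean of 5 TPM or more, were SNRNP27 (Pearson r = 0.998), TMEM184C (0.998), TIPARP (0.997), ALCAM (0.996) and ACTG1 (0.995). ALCAM is an adhesion molecule and ACTG1 encodes gamma actin. TIPARP, a mono-ADP-ribosyltransferase, measured 55.8 ± 1.28 TPM in siDUSP6 and 64.4 ± 0.862 TPM in siNC (SD, n = 3 each). Those nearest to SPRED2 were TXN2 (0.998), PRDX2 (0.996), SNAPC4 (0.994), ZNF367 (0.990) and TMEM14B (0.989). Between members, r was 0.979 for SPRY2 with SPRED1, 0.916 for SPRY2 with SPRED2 and -0.81 for SPRY2 with SPRY4. These values describe 6 libraries that share the contrast between the 2 groups, so any gene that differs between the groups in the same direction scores high.

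Of 13 genes of proteins that bind Sprouty or SPRED members, all of them tested, 1 rose and 1 fell, beside 3.86% called in either direction over all tested genes, with a median log2 fold change of -0.03, beside -0.03 over all tested genes. CBL, the ubiquitin ligase that binds SPRY2, fell to 52.7 ± 1.47 TPM in siDUSP6, against 62.4 ± 0.429 TPM in siNC (log2 fold change -0.24, limma adjusted p = 0.0136). CAV1, a caveolar scaffold protein reported to bind Sprouty proteins, rose to 53.7 ± 0.420 TPM in siDUSP6, against 46.4 ± 1.76 TPM in siNC (log2 fold change 0.21, limma adjusted p = 0.0356). Without 1 library the CBL call was kept in 1 of 6 fits (adjusted p 0.0315 to 0.0610) and that of CAV1 in 0 (adjusted p 0.0621 to 0.112).

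Other negative regulators of RAS and ERK went both ways. Of 21 listed genes, which include the targeted DUSP6 and the partner CBL, 17 were tested, 3 rose and 4 fell, and the median log2 fold change was -0.04. Over all tested genes, 3.86% were called in either direction and 1.49% were called lower. The fall of DUSP6 is the knockdown itself, and CBL is counted among the partners as well. Beside DUSP6 and CBL, RASA1, a GTPase-activating protein of RAS, fell to 97.6 ± 2.27 TPM in siDUSP6, against 117 ± 2.43 TPM in siNC (log2 fold change -0.26, limma adjusted p = 0.00675). The RASA1 call was kept when any 1 library was left out. It was lost without the variance trend (limma adjusted p = 0.0639) and with the replicate number as a block (limma adjusted p = 0.0620). With siDUSP6 replicate 1 alone (log2 fold change -0.25) it was lost as well. DUSP7, another ERK phosphatase and the gene named in the treatment label of siDUSP6 replicate 2, fell to 39.6, 39.5 and 37.2 TPM in siDUSP6 replicates 1 to 3, against 49.5, 50.1 and 47.1 TPM in siNC (log2 fold change -0.33, limma adjusted p = 0.0111), a call lost without siNC replicate 1 or 2 (adjusted p = 0.0535 and 0.0518). DUSP8, named in the treatment label of siDUSP6 replicate 3, measured 1.62 TPM in that library, against 1.4 to 2.11 TPM in siNC. The 3 that rose, named after their values were seen to complete the count, were CBLB, a relative of CBL, and the ERK-induced phosphatases DUSP4 and DUSP5. CBLB measured 55.3 ± 2.0 TPM in siDUSP6 and 46.2 ± 1.87 TPM in siNC (log2 fold change 0.26, limma adjusted p = 0.0297). DUSP4 measured 52.0 ± 0.527 TPM in siDUSP6 and 46.5 ± 0.127 TPM in siNC, and DUSP5 149.9 ± 3.97 TPM in siDUSP6 and 136 ± 0.597 TPM in siNC (SD, n = 3 each; limma adjusted p = 0.0394 and 0.0396). The CBLB call was kept only without siNC replicate 3, that of DUSP5 only without siDUSP6 replicate 3 and that of DUSP4 in none of the 6 fits that left out 1 library. CBL and CBLB thus moved in opposite directions, as did DUSP6 and DUSP7 against DUSP4 and DUSP5.

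Upstream of the inhibitors, 1 receptor was called, beside 3.86% called over all tested genes. Among 9 receptor tyrosine kinases tested of 19 listed, MET, the receptor of hepatocyte growth factor, rose to 23.1, 23.5 and 22.5 TPM in siDUSP6, against 14.9, 15.2 and 15.4 TPM in siNC. Its log2 fold change was 0.57 (SE 0.0436, limma adjusted p = 0.00145). The MET call was kept when any 1 library was left out and lost with siDUSP6 replicate 1 alone (log2 fold change 0.58). No tested receptor fell in limma's test, and at an unadjusted p under 0.05, 2 receptors were higher and 0 lower. Of 10 ligands tested of 15 listed, none was called by limma, which is near the 3.86% over all tested genes. At an unadjusted p under 0.05, 4 ligands were higher and 1 lower, and the share of all tested genes at that p is not given here. AREG, a ligand of the EGF receptor, measured 379 ± 10.2 TPM in siDUSP6 and 351 ± 7.30 TPM in siNC (limma adjusted p = 0.0840, and 0.0405, a call, after median-of-ratios scaling), and VEGFA, which acts on the VEGF receptors, 158 ± 2.95 TPM in siDUSP6 and 168 ± 1.42 TPM in siNC (limma adjusted p = 0.0909). The list medians were 0.12 for receptors and 0.04 for ligands.

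None of the 21 genes of the RAS-ERK cascade itself was called by limma, with 0 higher and 1 lower at an unadjusted p under 0.05 and a median log2 fold change of -0.04. Over all tested genes 3.86% were called, so 0 of 21 is near that share. GRB2, the adaptor bound by SPRY2, measured 138 ± 0.747 TPM in siDUSP6 and 133 ± 2.12 TPM in siNC (limma adjusted p = 0.289). Of 16 ERK-induced genes tested of 18 listed, 2 rose and 1 fell, beside 3.86% called in either direction over all tested genes. Their median log2 fold change was -0.01. At an unadjusted p under 0.05, 2 ERK-induced genes were higher and 3 lower. PLAUR, the urokinase receptor, rose to 550.3 ± 7.49 TPM in siDUSP6, against 487 ± 6.88 TPM in siNC (log2 fold change 0.18, limma adjusted p = 0.00527), as did the immediate early gene IER3, to 165 ± 6.13 TPM in siDUSP6, against 138 ± 3.31 TPM in siNC (log2 fold change 0.25, limma adjusted p = 0.0133). EGR2, an immediate early transcription factor, fell to 151 ± 3.67 TPM in siDUSP6, against 173 ± 1.28 TPM in siNC (log2 fold change -0.19, limma adjusted p = 0.0119). The PLAUR call was kept when any 1 library was left out and lost without the variance trend (adjusted p = 0.1005) and with siDUSP6 replicate 1 alone (adjusted p = 0.145). Those of IER3 and EGR2 were kept in 3 of 6 fits without 1 library each, with adjusted p up to 0.0535 and 0.0570. SPRY2, SPRED1 and SPRED2 were called lower, whereas the few ERK-induced genes called went in both directions. ERK activity was not tested.

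**Figure D5:**
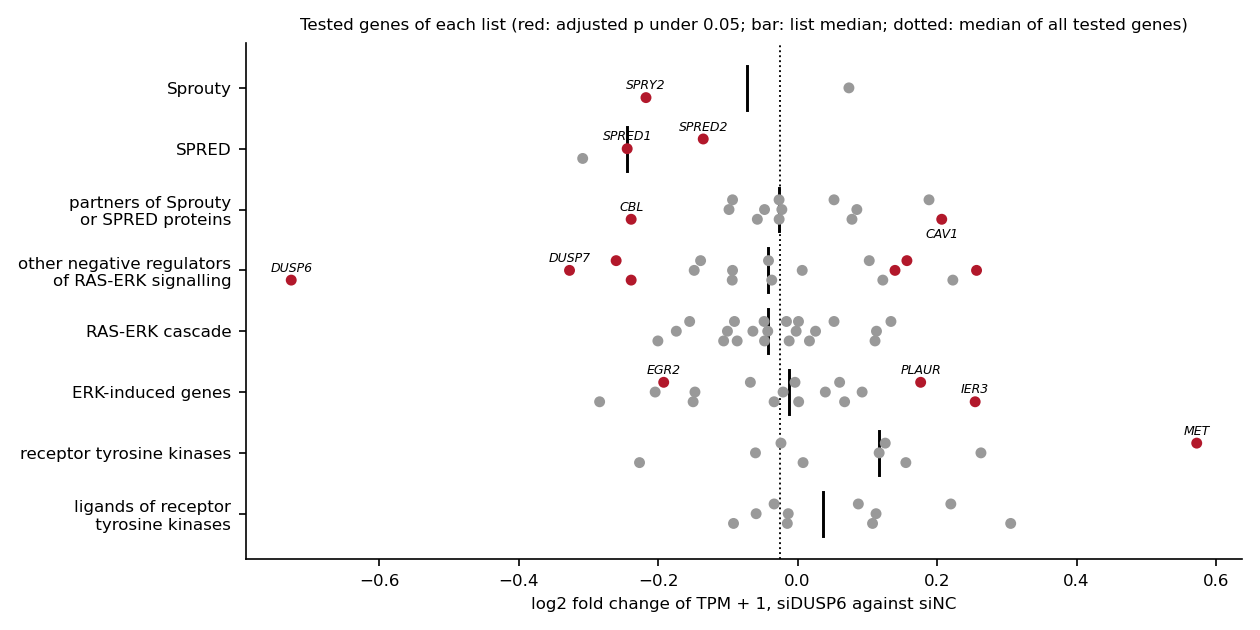
Log2 fold change of TPM + 1 in siDUSP6 against siNC for every tested gene of each list; red points have an adjusted p under 0.05, black bars are list medians and the dotted line is the median of all 14602 tested genes. SPRY2, SPRED1 and SPRED2 lie left of the dotted line, no gene of the RAS-ERK cascade is red, and MET lies farthest right at 0.57.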

How the data were processed

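Gene-level TPM, to 2 decimals, were deposited by the authors as 1 table covering the 6 libraries; columns sum to 1000000 within rounding. Poly(A) libraries came from a stranded kit, per the labels' protocols. Tools listed in the submitters' processing notes are HISAT2, StringTie and fastp, and the build is GRCh38; no source used here gives versions, the annotation or the use of strand in counting. Of 63262 rows, 21 had no gene ID and were left out. Groups came from titles.

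With limma 3.58.1 under R 4.3.3, log2(TPM + 1) of the 14602 genes whose mean reached 1 TPM was modelled on group alone with a variance trend, two-sided, with Benjamini-Hochberg adjustment over all and calls at 0.05. This scale understates changes of low genes. Ratios were tested by exact permutation.

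The members and lists were chosen with earlier results of these data known. Named are the 7 genes, DUSP6, DUSP7, DUSP8, antisense genes of members, up to 4 called genes per list by p (2 where none was called) and the 5 genes most correlated with the most abundant member of each family. One gene that this rule names is not reported here.

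The alternatives tried were no filter or a minimum mean of 5 TPM, a pseudocount of 0.1 or 5, quantile normalization or median-of-ratios scaling, no or a robust variance trend, a replicate block, siDUSP6 replicate 1 alone, and each library left out. Gene models are from GENCODE 29 and promoters from RefSeq.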

Additional observations from a re-analysis of the deposited data

How the results depend on the processing

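Every alternative kept the sign of the fold change of SPRY2, SPRED1, SPRED2, SPRY4 and SPRED3 wherever the gene was tested. Without the variance trend, none of the 3 called members was called (SPRY2 -0.22, SPRED1 -0.24, SPRED2 -0.14), and with siDUSP6 replicate 1 alone, whose spread is assumed to equal that of siNC, none was either (-0.22, -0.24 and -0.17); the count was 0 in both, against 3 as reported. SPRED2 also lost its call with a pseudocount of 0.1 (-0.14), no filter (-0.14), median-of-ratios scaling (-0.11) and quantile normalization (-0.14). With 1 library left out, log2 fold changes ran from -0.27 to -0.22 for SPRED1 and from -0.15 to -0.12 for SPRED2, and 1 to 2 members were called. Over the whole table, the calls higher and lower numbered 106 and 18 without the variance trend, 44 and 5 with siDUSP6 replicate 1 alone, and 165 to 192 and 57 to 79 with 1 library left out; 114 were lower without a filter. Higher genes were 346 of 564 calls as reported, and 435 against 159 lower after median-of-ratios scaling. The SPRED sum differed by -10.9% after that scaling. The log2 difference of SPRY1/SPRY2 (-0.09) was 0.14 with a pseudocount of 1 and ran from -0.24 to 0.13 with 1 library left out (0.04 without siDUSP6 replicate 3, 0.13 without siNC replicate 2). The causes were not tested, except that leaving out a library leaves fewer samples.

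The replicate numbers are not stated to mark a shared culture or day. Deviations from group means correlated at 0.013, -0.024 and 0.060 between libraries of the same number. Replicates 1 and 3 of siDUSP6 correlated best with the siNC library of their own number, whereas replicate 2 did so with siNC replicate 1 (0.084). Such small correlations among 3 libraries a group cannot decide whether the numbers mark pairs. With the replicate number as a block the calls were 101 higher and 20 lower, and 0 members were called (SPRY2 -0.22, adjusted p = 0.0599; SPRED1 -0.24, adjusted p = 0.0976; SPRED2 -0.14, adjusted p = 0.145). Of the other genes named, the calls of RASA1 (adjusted p = 0.0620), CBL, CAV1, CBLB, DUSP4, DUSP5, IER3 and EGR2 were lost with the block, and these and DUSP7 and PLAUR were lost without the variance trend. Depth is unknown, so the precision of SPRY1, SPRY3 and SPRED3 could not be set.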
